A study of Vanessa cardui with 14 samples.

Results

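In the painted lady butterfly, Vanessa cardui, 38 of 13876 assembled genes passed every limit set here on their expression. All 38 were at least 5 times higher in hind wings at both stages when pigment appeared than at any stage before. They were not the only such genes, as 89 met the conditions on level and rise before the other limits were applied. The 38 genes were selected on their FPKM (fragments normalised to transcript length and library size). This had to be at least 5 in all 4 hind wing libraries of the ommochrome and melanin stages. Each of those libraries was also at least 5 times the largest of the larval, 72 h and 5 d means. The melanin mean had to be 0.67 to 2 times the ommochrome mean, the red and black forewing means had to lie less than 2-fold apart, and the forewing mean had to stay under 3 times the melanin mean. The rise to the pigment stages, the step between those stages, the difference between the regions and the forewing to melanin ratio were thus used to choose the genes, and values of those comparisons are a description with no test.

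RNA was sequenced from whole hind wings of last instar larvae, of pupae at 72 h and at 5 d after pupation (before pigment), of pupae in which red and orange ommochromes began to show, and of pupae in which black melanin began to show. Red and black regions were cut from pupal forewings. These 7 groups had 2 libraries each, all from caterpillars reared under 1 light and temperature regime, and the labels name no strain, sex, treatment or pooling of animals. The forewing stage is melanin in the sample labels and ommochrome in the treatment protocol.

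A butterfly wing is covered by scales, each built by a single cell that lays down cuticle and then fills with pigment in the pupa. Ommochromes, the red and orange pigments, are made from tryptophan, and melanins, the black and brown ones, from tyrosine. In nymphalid butterflies the ommochrome scales are known to colour before the melanin scales. No identifier matched the reference gene table (0 of 13876), so none of the 38 genes has a name here, the known pigment genes were not located, and wing identity could not be checked with marker genes. Nor could any sequence be shown. In whole tissue, fewer cells of a type and less RNA per cell cannot be told apart.

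Of the 13876 genes, 5174 had at least 5 FPKM in the 4 pigment-stage hind wing libraries (ommochrome and melanin), and 89 of these met the 5-fold condition too. The limit on the melanin to ommochrome ratio left 67, 14 of the others having a melanin mean more than 2 times the ommochrome mean and 8 one below the lower limit. The limit on the regions left 44 and the forewing limit 38. The 2 members nearest the 5-fold limit were c27165_g2 and c22539_g1, with a lowest pigment-stage library of 5.009 and 5.01 times the largest early mean. The 2 genes just outside, c23201_g1 and c22804_g3, lay at 4.954 and 4.853 times.

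Summed FPKM ranged from 482546 to 833658 per library. Melanin hind wing replicate 1 stood apart, with 3641 genes listed at 0, where the other 13 libraries had 1931 to 2707. The depth of the libraries is unknown. Of the 38 genes, 11 had at least 1 early value of 0.1 FPKM or less.

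**Figure D1:**
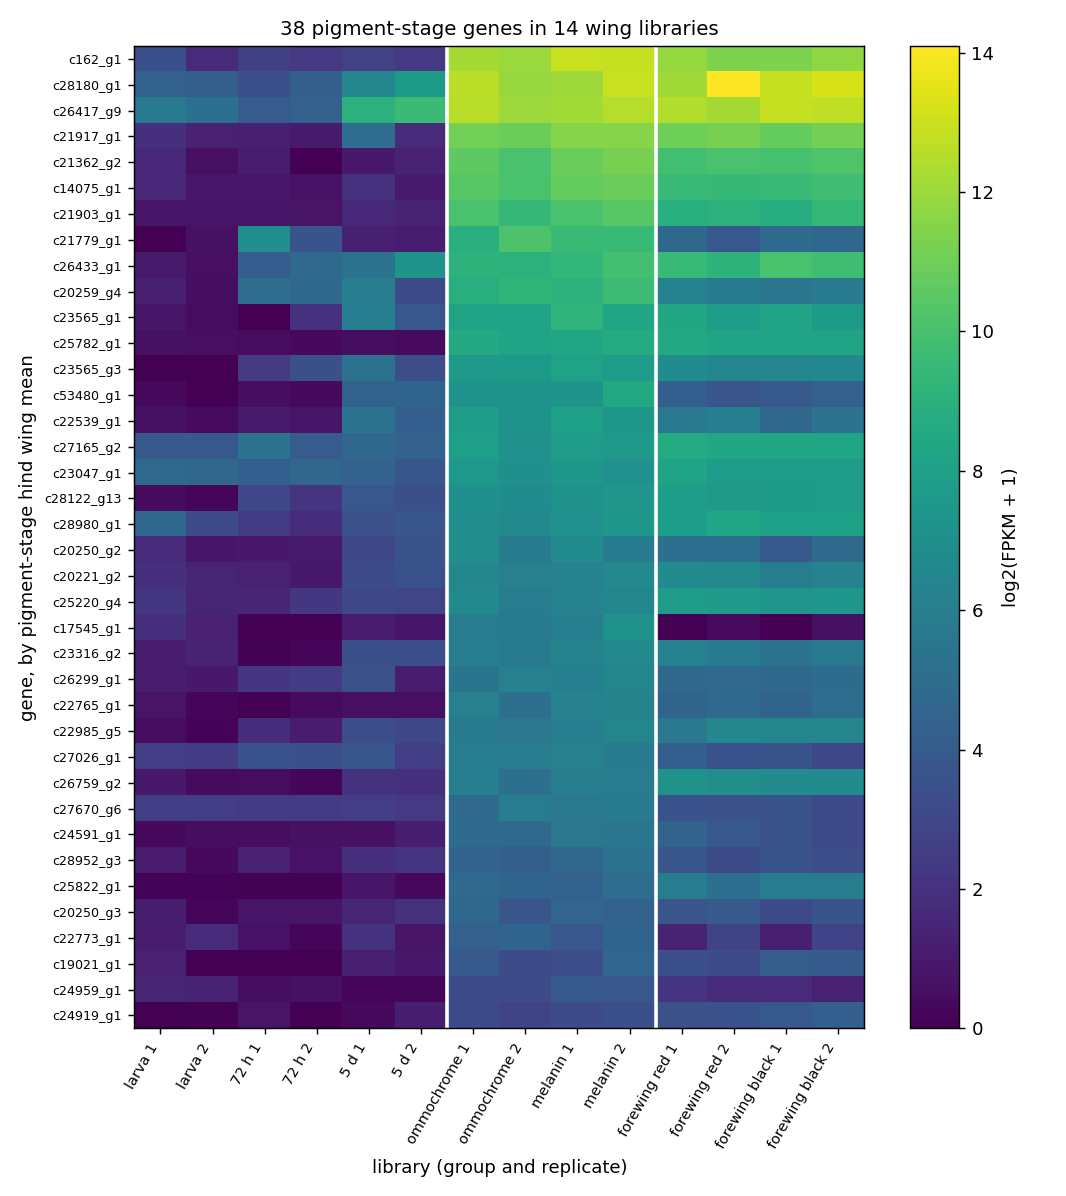
Expression of the 38 genes (rows, from the highest to the lowest pigment-stage mean) in the 14 libraries (columns), as log2(FPKM + 1) in colour. White lines separate the 6 early hind wing libraries, the 4 pigment-stage hind wing libraries and the 4 forewing libraries; c17545_g1 is dark in all 4 forewing libraries.

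The 38 genes spanned a wide range of abundance at the pigment stages. The mean over the 4 pigment-stage libraries of the hind wing ran from 8.25 to 5941 FPKM, with a median of 110.2. It was at least 1000 FPKM for 7 genes, 100 to 1000 for 12, 20 to 100 for 15 and under 20 for 4. The most abundant, c162_g1, was at 4615 and 3987 FPKM at the ommochrome stage, then 7648 and 7514 at the melanin one, against 2.34 to 9.84 in the 6 early libraries. The next, c28180_g1, was at 6445 and 3893 FPKM at the ommochrome stage, then 4201 and 7637 at the melanin one, and already at 86.4 and 201.1 at 5 d. At the low end, c24919_g1 had 8.04 and 6.4 FPKM at the ommochrome stage, then 8.51 and 10.05 at the melanin one, and at most 1.27 in any early library. Gene c24959_g1 had 8.55 and 8.71 FPKM at the ommochrome stage, then 14.45 and 13.39 at the melanin one, and 1.77 or less before.

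Together the 38 genes went from a trace of the summed FPKM to several percent of it. They held 0.02364% and 0.01658% of the sum in the larva, 0.04578% and 0.03072% at 72 h, and 0.1741% and 0.2344% at 5 d. In the ommochrome hind wings they held 4.957% and 4.438%, and in the melanin hind wings 4.934% and 5.629%. In the forewing, red regions held 2.94% and 4.944% and black regions 4.112% and 4.235%. Most of this came from the 3 most abundant genes, c162_g1, c28180_g1 and c26417_g9, which made up 56.14% to 61.8% of the members' sum in the pigment-stage hind wings and 63.79% to 76.13% in the forewings. Without those 3 genes the share was 1.894% to 2.293% in the pigment-stage hind wings and 1.065% to 1.246% in the forewings. Every forewing library then lay below every pigment-stage hind wing library. With all 38 genes that order did not hold, as red replicate 2, at 4.944%, was above melanin replicate 1, at 4.934%. The choice required the hind wing libraries to be high and limited the forewing mean from above, so nothing is read from the order.

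**Figure D2:**
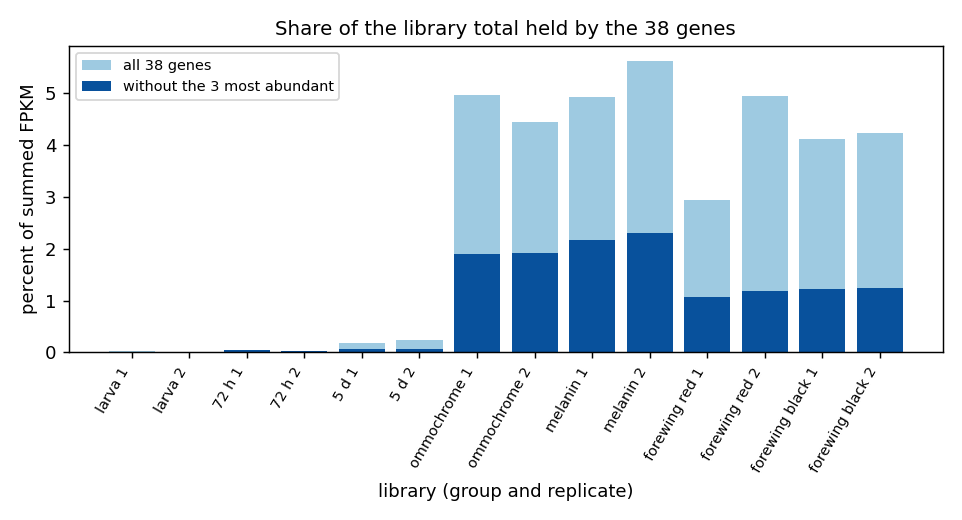
Percent of each library's summed FPKM held by all 38 genes (light bars) and by the 35 left without the 3 most abundant (dark bars), by library. The dark bars of the 4 forewing libraries, at 1.065% to 1.246%, are lower than those of the 4 pigment-stage hind wing libraries, at 1.894% to 2.293%. The choice of genes bears on this order.

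How silent the genes were beforehand differed widely. The pigment-stage mean exceeded the largest early mean by 6.029 to 1342 times, with a median of 10.26. In 7 genes the ratio was 131.6 or more, and in the other 31 it was 46.9 or less. The largest ratios, both of the mean and of the lowest library, were those of c21362_g2 and c162_g1. Gene c21362_g2 had 2.05 and 0.48 FPKM in the larva, 1.22 and 0 at 72 h, and 0.94 and 1.63 at 5 d. It had 1565 and 1076 at the ommochrome stage, then 1856 and 2400 at the melanin one. No member (0) was listed at 0 in all 6 early libraries. Early means were under 1 FPKM at every early stage for 5 genes, 1 to 5 FPKM at the highest for 10, and 5 FPKM or more for 23. The 5 genes, named after their values were seen, were c25782_g1, c22765_g1, c24591_g1, c25822_g1 and c24919_g1. Of these, c25782_g1 reached the highest level, from 0.28 to 0.53 FPKM in the 6 early libraries to 298.6 to 411.9 in the 4 pigment-stage hind wing libraries.

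The largest early mean fell at 5 d for 28 of the 38 genes, in the larva for 7 and at 72 h for 3. How often this was so among all genes is not given here, so nothing is read from these counts. The direction of the step from 72 h to 5 d was not used to choose the genes, but both of its means were capped. Its p-values, like those of the step from larva to 72 h, take no account of the choice and are a description. From 72 h to 5 d, 13 of the 38 genes rose and 1 fell (limma, adjusted p under 0.05), against 9.42% and 12.3% of all 10780 genes tested. The median change was 0.96 log2 for the 38 genes and -0.14 for all genes. Only the members' 72 h and 5 d means were capped by the choice, so nothing is read from the contrast with all genes. A log2 change here is one of FPKM + 1, which understates the change of low genes. All 38 passed the filter on low values, as the choice required 5 FPKM in 4 libraries, and 33 would have passed on their early libraries alone. The 5 d replicates lay more than 2-fold apart for 14 of the 38 genes, 25 genes being higher in replicate 1 and 13 in replicate 2. In a fit to the 72 h and 5 d libraries alone none (0) of the 10780 genes was called, members included, with 16 members higher and 2 lower at an unadjusted p under 0.05.

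The largest early rise was that of c26417_g9. It had 55.94 and 34.32 FPKM in the larva, 15.83 and 19.65 at 72 h and 536.3 and 778.3 at 5 d (log2 change from 72 h 5.12, SE 0.321, adjusted p = 4.59e-06). It then reached 6095 and 4246 FPKM at the ommochrome and 4458 and 5803 at the melanin stage. Both 5 d libraries thus stood between the earlier and the later ones. Gene c53480_g1 went from 0.45 and 0.29 FPKM at 72 h to 19.53 and 22.75 at 5 d (log2 change 4.01, SE 0.371, adjusted p = 5.35e-05), and to 150.2 and 145.4 at the ommochrome and 155.3 and 372.1 at the melanin stage. Both calls were lost in the fit to the 2 groups alone (adjusted p = 0.0552 for each). The gene that fell, c21779_g1, had an earlier peak, at 72 h. It was at 0 and 0.57 FPKM in the larva, 118.5 and 11.43 at 72 h, 1.38 and 1.18 at 5 d, and 501.1 and 1161 at the ommochrome stage. The 72 h libraries lay far apart, and both were above the 4 larval and 5 d libraries (log2 change from 72 h to 5 d -4.08, SE 0.836, adjusted p = 0.00728). The change was -2.45 without 72 h replicate 1 and -5.71 without 72 h replicate 2.

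From larva to 72 h, 6 of the 38 genes rose and 5 fell, against 7.71% and 44.5% of all genes tested. The median gene of all those tested moved by -0.73 log2, and the median of the 38 by -0.07. The choice capped the members' larval and 72 h means and set no such limit on the other genes. Nothing is therefore read from the contrast with all genes. With median-of-ratios scaling, which sets the median of all genes at 0, 9 of the 38 rose and none (0) fell. Of all 10648 genes tested with that scaling, 1553 rose and 1678 fell. By quantile normalization 8 of the 38 rose and 2 fell, where 1408 and 2092 of all 10741 genes did. The largest rises were those of c21779_g1 (log2 change 4.94, SE 0.836, adjusted p = 0.000863; 3.31 without 72 h replicate 1 and 6.58 without replicate 2) and c20259_g4. Gene c20259_g4 went from 1.36 and 0.41 FPKM to 32.48 and 26.02 (log2 change 4.04, SE 0.676, adjusted p = 0.000813), with 59.86 and 8.44 at 5 d. The largest falls were those of c28980_g1 and c17545_g1. Gene c28980_g1 went from 24.93 and 8.34 FPKM to 4.32 and 2.54 (log2 change -1.84, SE 0.416, adjusted p = 0.00431; -1.11 without larval replicate 1 and -2.58 without replicate 2), and c17545_g1 from 2.72 and 1.44 to 0 and 0 (log2 change -1.59, SE 0.385, adjusted p = 0.00617). With median-of-ratios scaling neither fall was called (adjusted p = 0.129 and 0.0788), and that of c17545_g1 was lost without larval replicate 1 (adjusted p = 0.0519) and with a pseudocount of 5 (adjusted p = 0.174). The call of c21779_g1 was lost in a fit to the 2 groups alone (adjusted p = 0.0771), as was that of c28980_g1 (adjusted p = 0.126), which quantile normalization also ended (adjusted p = 0.0865).

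**Figure D3:**
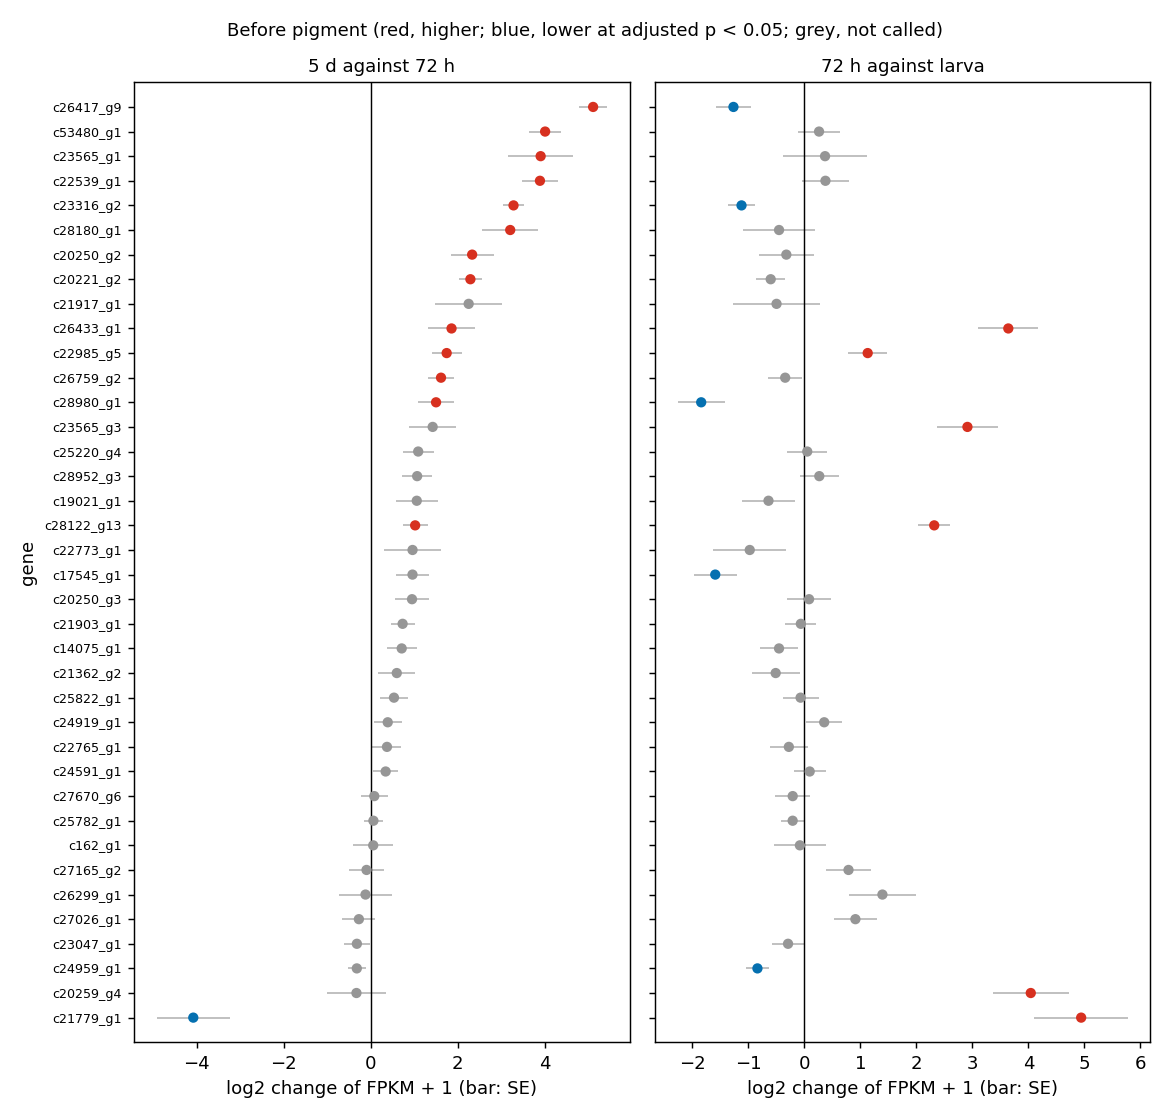
Log2 change of FPKM + 1 for the 38 genes from 72 h to 5 d (left) and from larva to 72 h (right), with points in the same row order and bars showing the standard error. Of the 38 genes, 13 are higher and 1 is lower on the left, and 6 are higher and 5 lower on the right at an adjusted p under 0.05. The choice of genes capped the early means that both panels compare.

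The step into pigmentation and the step between its stages were set by the choice of genes. From 5 d to the ommochrome stage the changes of the 38 genes ran from 2.26 to 9.50 log2. The melanin to ommochrome ratio of means ran from 0.865 to 1.891, and it was above 1 in 32 of the 38 genes. Both melanin libraries were above both ommochrome libraries in 18 genes and below them in none (0). The share of all genes with either order is not given here, so nothing is read from these counts. The ratio of 1.891 was that of c17545_g1. By log2 change of FPKM + 1, the largest difference upwards was that of c162_g1 (log2 change 0.82, SE 0.465). The largest downwards was that of c22773_g1, at 18.66 and 22.09 FPKM at the first stage and 13.1 and 22.15 at the second (log2 change -0.24, SE 0.651). Its sign turned without melanin replicate 1.

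The forewing shows whether the genes were also on in another pigmenting wing, since no lower limit was set there. All 4 forewing libraries had at least 5 FPKM for 35 of the 38 genes. The same held for 34.7% of all genes and for 83.7% of the 5174 genes that had at least 5 FPKM in the 4 pigment-stage hind wing libraries. The 3 others were c17545_g1, c22773_g1 and c24959_g1. The choice placed all 38 among those 5174 genes, most of which also reached 5 FPKM in the forewing, so nothing is read from the count. Nor does that level mark a gene as switched on, since 23 of the 38 had a largest early mean of 5 FPKM or more. All 4 forewing libraries lay above all 6 early hind wing libraries for 30 of the 38 genes and for 7.57% of all genes. Nothing is read from that contrast, since the choice held down the members' early means and set no such limit on the other genes. In the 8 remaining genes the 2 sets of libraries overlapped or the forewing was lower.

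Against the 5 d hind wing the median change in the forewing regions was 3.09 log2 for the 38 genes, and 32 of them were past the limma threshold upwards and none (0) downwards, where 19.1% and 13.5% of all genes were; at an unadjusted p under 0.05 the counts were also 32 and 0. The choice had held down the 5 d means, so these values are a description and nothing is read from the counts. Gene c162_g1 had 3776 and 2632 FPKM in red regions, and 2593 and 3519 in black ones (log2 change from 5 d 9.02, SE 0.403). Gene c21362_g2 had 892.4 and 1040.4 FPKM in red regions, and 1024 and 1186 in black ones (log2 change 8.84, SE 0.371). For both genes every forewing library was far above both 5 d libraries, at 4.05 and 5.96 FPKM for c162_g1 and 0.94 and 1.63 for c21362_g2. The most negative change was that of c17545_g1 (log2 change -0.70, SE 0.333).

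The forewing level was then set beside that of the melanin hind wing. The median change was -0.96 log2 for the 38 genes, 17 of which were past the limma threshold downwards and 3 upwards, where 15.2% and 6.03% of all genes were. The choice had required the melanin libraries to be high and limited the forewing mean from above, so nothing is read from these counts. Without melanin replicate 1, the library with the most genes at 0, they were 11 and 0, none (0) was past the threshold upwards without red replicate 1 or either black replicate, and 1 was without melanin replicate 2. A whole hind wing and a dissected forewing region differ in wing and in the kind of sample at once, which cannot be told apart.

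The largest decrease was that of c17545_g1, which was near 0 in the forewing. It had 62.29 and 52.02 FPKM at the ommochrome stage, then 67.55 and 148.7 at the melanin one, both in the hind wing, against 0 and 0.35 in red regions and 0 and 0.54 in black ones (log2 change against melanin -6.40, SE 0.333). All 4 forewing values were also below every larval value. Gene c21779_g1 had 748.7 and 749.4 FPKM in melanin hind wings, 24.79 and 13.34 in red regions and 28.94 and 25.37 in black ones (log2 change -5.01, SE 0.724). Including these, 4 genes had a forewing mean under 0.1 of the melanin mean, the others being c53480_g1 and c20259_g4. Gene c53480_g1 had 12.22 to 19.28 FPKM in the forewing, near its 19.53 and 22.75 in the 5 d hind wing (log2 change from 5 d -0.40, SE 0.321), while its melanin hind wings were at 155.3 and 372.1. Gene c20259_g4 had 45.59 to 71.33 FPKM in the forewing and 528.5 and 799.5 in the melanin hind wings.

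Among the genes higher in the forewing, 3 are described here. Gene c25220_g4 had 75.3 and 86.43 FPKM in melanin hind wings, 212.9 and 187.6 in red regions and 164.8 and 170.9 in black ones (log2 change 1.17, SE 0.31). Gene c25822_g1 had 19.83 and 31.54 FPKM in melanin hind wings, 62.77 and 33.89 in red regions and 58.67 and 61.08 in black ones (log2 change 1.04, SE 0.278; 0.72 without melanin replicate 1). The third, c26759_g2, had 58.43 and 61.97 FPKM in melanin hind wings and 109.6 to 146 in the forewing (log2 change 1.01, SE 0.261). In all 3 genes the 4 forewing libraries were above the 4 pigment-stage hind wing libraries. That order held for 8 of the 38 genes, against 15% of the 5174 genes with at least 5 FPKM in the pigment-stage hind wings. The opposite order held for 18, against 26.2%, and 12 genes overlapped. The limits of the choice bear on these counts.

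Because the labels disagree on the forewing stage, the ommochrome hind wing was compared too. Against it 11 of the 38 genes were past the limma threshold downwards in the forewing and 4 upwards, where 9.14% and 5.58% of all genes were. The median change was -0.40 log2 for the 38 genes and -0.15 for all. The choice required both ommochrome libraries to be high and limited the forewing mean from above. These values are thus a description, and nothing is read from the counts. The counts were 17 and 1 with equal FPKM totals, and 7 and 2 without ommochrome replicate 1. None (0) of the 4 higher calls was left without ommochrome replicate 2 or with a pseudocount of 0.1, 1 was left without red replicate 1 or either black replicate, and 2 without red replicate 2 or by quantile normalization. The largest decreases were again those of c17545_g1 (log2 change -5.59, SE 0.333) and c21779_g1 (log2 change -5.04, SE 0.724). The largest increases were those of c26759_g2 (log2 change 1.30, SE 0.261) and c28980_g1. Gene c28980_g1 had 118 and 108 FPKM in the ommochrome hind wings and 240.7 to 328.3 in the forewing (log2 change 1.24, SE 0.361). It was no longer past the threshold in 10 of the 14 fits with 1 library left out. The same held by quantile normalization, with equal FPKM totals, with a pseudocount of 0.1 and with no filter. The change of c26759_g2 was 0.86 log2 without ommochrome replicate 2, and with a pseudocount of 0.1 that gene was no longer past the threshold.

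**Figure D4:**
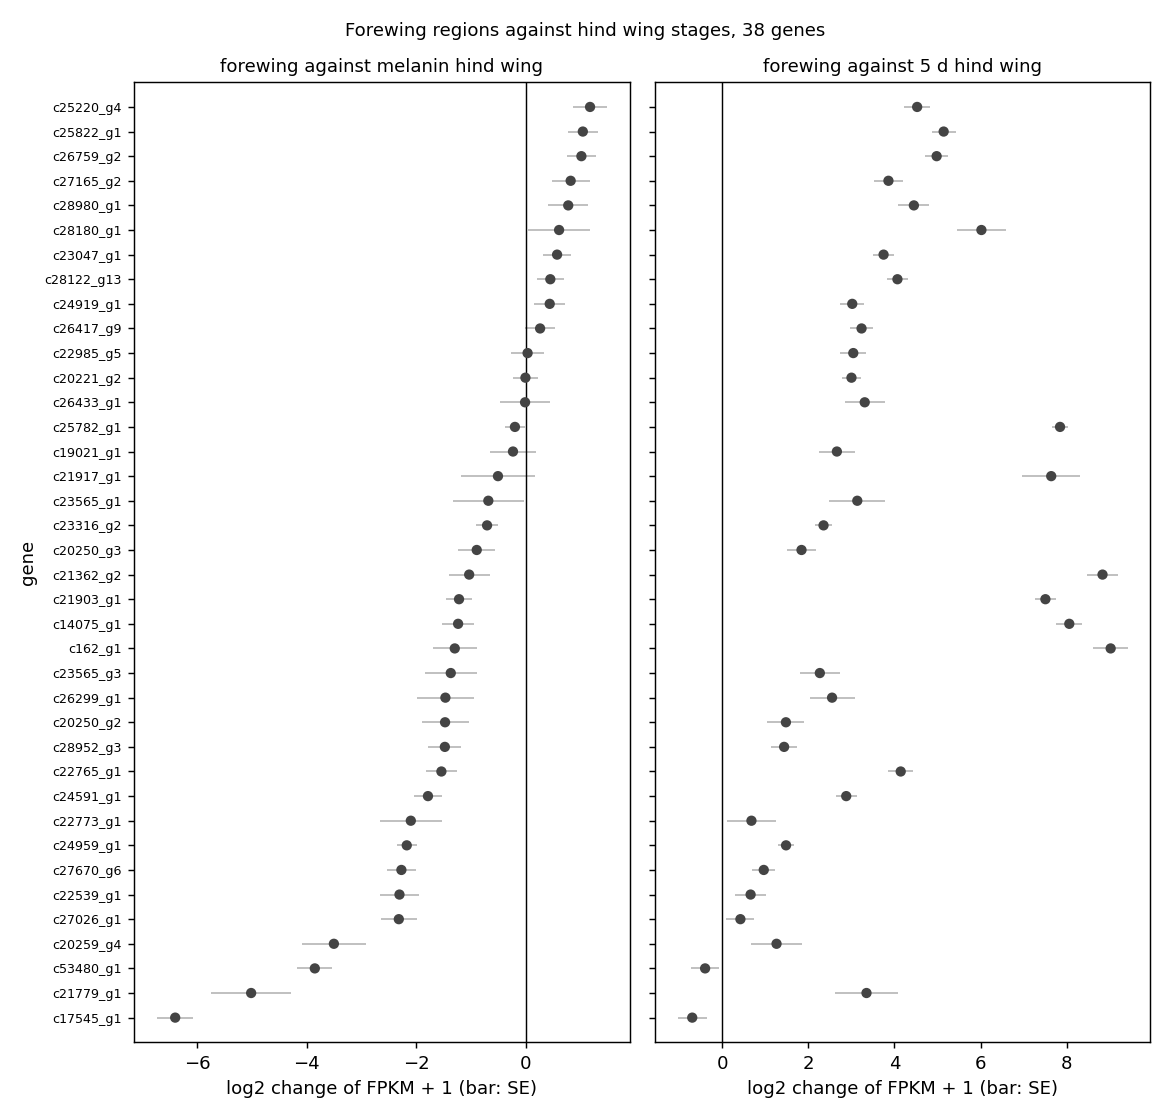
Log2 change of FPKM + 1 for the 38 genes in the forewing regions against the melanin hind wing (left) and against the 5 d hind wing (right), in the same row order, with bars showing the standard error. The choice of genes bears on both panels; c17545_g1 is lowest in both, at -6.40 and -0.70.

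The red and black regions were limited to less than 2-fold apart by the choice of genes. The ratio of red to black means ran from 0.583 in c19021_g1 to 1.848 in c24591_g1, above 1 in 24 genes and below 1 in 14. Both red libraries were above both black ones in 12 genes and below them in 5. No share of all genes is given beside these counts, and nothing is read from them. The median change from red to black was -0.09 log2 for the 38 genes and -0.15 for all genes tested. By log2 change of FPKM + 1, the largest difference towards black was that of c19021_g1 (log2 change 0.72, SE 0.478). Its values were 10.04 and 8.59 FPKM in red and 16.97 and 14.98 in black. The largest towards red was that of c22539_g1, at 51.34 and 66.92 in red and 24.71 and 39.56 in black (log2 change -0.88, SE 0.414; -0.56 without black replicate 1). For c28180_g1, the red libraries themselves lay far apart, at 4308 and 17523 FPKM, with 7559 and 9732 in black.

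The 38 genes came from 36 assembled components, sets of related transcript sequences between which reads may be divided, and 15 of them shared a component with another gene of the table. Values of those 15 are less certain. In 2 components both genes listed were members. Genes c23565_g1 and c23565_g3 were at 38.77 and 24.2 FPKM on average at 5 d, 287.8 and 195.5 at the ommochrome stage, then 448.3 and 252 at the melanin one. In the forewing they were at 271.3 ± 63.2 and 96.9 ± 12.8 (SD, n = 4 libraries, red and black regions together, which may not be independent). Genes c20250_g2 and c20250_g3 were at 89.86 and 19.21 FPKM at the ommochrome and 80.6 and 21.39 at the melanin stage, and at 28 ± 9.52 and 11.3 ± 2.71 (SD, n = 4) in the forewing. The members' components held 20 further genes that are not members. None (0) of these met the 5 FPKM and 5-fold conditions, and in 4 of them all 4 pigment-stage hind wing libraries were above all 6 early ones. One, named after its values were seen, was opposite in time to its member. Gene c25782_g5 had a larval mean of 1731 FPKM and 0.54 at the ommochrome stage, while c25782_g1 had 0.525 in the larva and 342.5 at the ommochrome stage.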

How the data were processed

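The authors deposited FPKM values, with 1 column per library. The submitters' processing notes name Bowtie, without a version, and the series title a de novo transcriptome. For the assembler and the quantification program, the sources used here give nothing. The 38 genes, lists and comparisons were chosen with earlier results of these data known. Genes that reached 1 FPKM in 2 or more libraries (10780) were fitted as log2(FPKM + 1) with limma 3.58.1 in R 4.3.3. The model had 7 group means over all 14 libraries, a spread prior that followed the mean, 7 residual degrees of freedom and no covariate. Tests were two-sided, with Benjamini-Hochberg adjustment over the 10780 genes in each of 8 comparisons and a threshold of 0.05. The model was tested on simulated data. No label says whether replicate libraries are separate animals, so the p-values cover the spread between libraries, possibly a technical one. The number of reads is unknown. An estimate of relative depth from the steps between low FPKM values was tried and left out: the scoring was revised once and the simulated depth lowered after failures, and the estimate recovered 2 of 14 simulated libraries within 0.1 log2 at 8000000 reads, 12 at 4000000 and 14 at 2000000. On the real values 53 of 91 pairs of libraries lay within 0.1 log2 of the fit. Named genes were, at most 2 each way, the members with the highest and lowest pigment-stage means, the largest called changes per comparison (or the largest change, where none was called), those at the 5-fold limit, and those sharing a component. Alternatives were 3 scalings, other pseudocounts, filters, limits, a replicate block, fits to the groups compared and leaving out each library. Python 3.11.15, NumPy 2.4.6, pandas 2.3.3 and matplotlib 3.10.9 were used.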

Additional observations from a re-analysis of the deposited data

How the results depend on the processing

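The choice of genes depended on its limits and on the scaling: 61 genes met the conditions with equal FPKM totals (all 38 among them), 34 with median-of-ratios scaling (25 of the 38) and 45 by quantile normalization (32 of the 38). With a fold of 3 in place of 5 there were 100 genes, and with 10 there were 13. Leaving out 1 library gave 35 to 60 genes, the highest without ommochrome replicate 2. The count of 35 genes with at least 5 FPKM in all 4 forewing libraries was the same without any 1 of them. Leaving a library out could not lower that count. With a floor of 10 FPKM in place of 5 it was 29, and with a floor of 2 FPKM it was 35. Without 1 library, 5 to 8 of the 38 genes were higher at 72 h than in the larva, 11 to 15 higher and 1 to 3 lower at 5 d than at 72 h, and 29 to 33 higher in the forewing than in the 5 d hind wing. Lower in the forewing were 7 to 13 against the ommochrome and 11 to 19 against the melanin hind wing, and 0 to 4 were higher than in the latter. In the fit to the groups compared, 0 rose and 0 fell from 72 h to 5 d. With a pseudocount of 0.1, 2 fell from 72 h to 5 d, and against the melanin hind wing 11 were lower and 1 was higher in the forewing. Median-of-ratios scaling gave 6 higher in that comparison, and equal FPKM totals gave 17 lower than in the ommochrome hind wing. The cause of these changes was not tested. The 38 genes were held fixed in the refits that gave these counts of calls, and the choice bears on the levels compared. How far the counts stayed alike is thus a description, and nothing is read from it. Of 22 named changes, 17 of them called, the sign turned only for c22773_g1 from ommochrome to melanin without melanin replicate 1 (log2 change 0.12, and -0.60 without melanin replicate 2). Same-numbered red and black libraries deviated together across genes (correlation 0.431), but the labels do not pair them. The forewing comparisons took the 4 forewing libraries as independent, so their standard errors may be too small. With a replicate block the count of members higher at 72 h was 7 and that lower in the forewing than in melanin hind wings 17. Against the ommochrome hind wing, c28980_g1 was then no longer past the threshold.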
